A study of Mus musculus with 10 samples.

Results

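The integrated stress response, the unfolded protein response of the endoplasmic reticulum (ER) and the heat shock response were followed on expression arrays of mouse ES cells that had been transfected and selected with puromycin. The members are 37 genes, 15 targets or regulators of the ATF4 arm, 10 genes of the ER arm and 12 genes of the heat shock arm. They were found by taking all probes, other than control spots, whose transcript accession belongs to one of these genes, which gave 47 of the 55681 probes on the array, for 37 of the 20972 genes that its probes could be named for. Of these, 44 probes of 35 genes passed the scanner's background test on 3 or more of the 10 arrays and were tested. *Atf3* (which passed on 2 arrays) and *Slc7a11* (on 0 arrays) were not, so counts below are of the 35 genes tested. Where a gene had several probes, the brightest probe on average over all arrays is given.

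These responses keep proteins folded and the amino acid supply intact when a cell is challenged. In the integrated stress response, kinases that sense amino acid shortage, viral RNA, haem shortage or ER stress phosphorylate the initiation factor eIF2, which slows translation in general but favours translation of *Atf4*, and ATF4 then induces genes of amino acid synthesis and transport together with *Ddit3* (CHOP) and *Trib3*. In the ER, the sensors IRE1 (*Ern1*), ATF6 and PERK detect misfolded proteins and raise the chaperones of that compartment, in part through the factor XBP1. In the cytosol and nucleus, HSF1 (*Hsf1*) binds heat shock elements and induces chaperones of the HSP70, HSP90 and small heat shock protein families, several of which are also abundant in unstressed, fast growing cells such as ES cells.

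All samples were E14 ES cells (129/Ola background) grown with Lif in 10% fetal calf serum. In the first group, a pool of gRNA plasmids against the *Hottip* promoter was co-transfected with a plasmid for dCas9-VP160, a nuclease-dead Cas9 fused to an activation domain (*Hottip* gRNAs, n = 4). In the second group the gRNA pool was against the *Hoxa13* promoter, again with dCas9-VP160 (*Hoxa13* gRNAs, n = 3). The control (n = 3) received control gRNA, that is, non-targeting guides with dCas9 that does not carry VP160, so in each comparison with the control the guides and the VP160 domain differ together and cannot be told apart. In every group puromycin was added at 2 μg/ml for 24 hrs and RNA was taken 48 hrs after transfection. No untransfected or unselected sample was analysed here, so a stress shared by all 3 groups would not appear as a difference, and the comparisons ask only whether the groups differ in it. Plasmids were introduced transiently and whole wells were harvested, so each array is a mixture of cells, in which fewer cells of one kind and less RNA per cell cannot be told apart.

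Each array reports the Cy3 signal of a spot. A level is the log2 of the processed spot signal minus the log2 of the 75th percentile of that array, so 0 is the 75th percentile and negative levels are dimmer. Levels of different probes are not compared with each other. The 75th percentile of signal ranged from 948 to 2572 after *Hottip* gRNAs, from 586 to 1086 after *Hoxa13* gRNAs and from 1096 to 2380 in the control. All *Hottip* gRNA and control arrays lay on 1 slide, together with replicate 3 of the *Hoxa13* gRNAs, and a second slide held replicates 1 and 2 of the *Hoxa13* gRNAs. Of 12 ES cell markers 11 were well above background on all arrays, while of 10 fibroblast markers 0 were above it on all arrays and 3 (*Pdgfrb*, *Postn* and *Lum*) on none. The log2 of the summed signal of the ES cell markers was 7.44 to 8.27 after *Hottip* gRNAs, 8.38 to 8.78 after *Hoxa13* gRNAs and 7.24 to 8.53 in the control. That of the fibroblast markers was 2.69 and 2.85 on *Hottip* gRNA replicates 2 and 4 and 0.30 to 1.46 on the other arrays. Of 10 mesoderm and streak markers 2 were above background on all arrays and 4 (*Mixl1*, *Mesp1*, *Tbx6* and *Hand1*) on none. Their sum was 2.61 to 3.30 after *Hottip* gRNAs, 1.23 to 1.79 after *Hoxa13* gRNAs and 0.81 to 1.14 in the control, and the part of these differences in the values below was not tested. For 10 endoderm markers it was 2.96 to 3.55, 2.62 to 2.67 and, in the control, 2.68, 2.70 and 6.44, so that control replicate 3 stood apart, and its part was not tested either. For 9 neural markers the sum was 4.03 to 5.48, 4.45 to 5.10 and 4.53 to 5.14 in the same order of groups. Such sums are carried by a few bright probes. Of the streak markers, *Cdx1* had group means of 1.89, −0.90 and −1.58 in that order, while *Kdr* had −0.89, −0.39 and −1.15.

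No member was called in any comparison. With limma and Benjamini-Hochberg adjustment over all probes tested, 0 of 35 members had an adjusted p under 0.05 for *Hottip* gRNAs against the control, where 0.718% of all probes tested were called (0.425% higher and 0.293% lower). The count was 0 of 35 for *Hoxa13* gRNAs against the control (0.175% of all probes, 0.0613% higher and 0.114% lower) and 0 of 35 for *Hottip* gRNAs against *Hoxa13* gRNAs (0.381%, 0.272% higher and 0.11% lower). The smallest adjusted p of a member was 0.654, 0.447 and 0.309 in the 3 comparisons. At an unadjusted p under 0.05, 0 members differed between *Hottip* gRNAs and the control, where 8.05% of all probes did (3.76% higher and 4.29% lower). That count of 0 was 3 without *Hottip* gRNA replicate 1, 1 without replicate 4, 1 without *Hoxa13* gRNA replicate 3 and 2 without control replicate 3, and reached 3 with normexp and quantile normalization. For *Hoxa13* gRNAs against the control, 6 were higher (*Hspa8*, *Hspd1*, *Hspe1*, *Asns*, *Slc3a2* and *Phgdh*; 7.98% of all probes were higher in this way) and 2 were lower (*Bag3* and *Herpud1*; 2.98% of all probes). *Bag3* and *Herpud1* were also the 2 members higher at this threshold after *Hottip* gRNAs than after *Hoxa13* gRNAs (4.06% of all probes), and 0 were lower (7.87%). That count of 2 moved between 0 and 6 when single arrays were left out, and with an intensity trend in the fit 4 members were lower. The count of 8 for *Hoxa13* gRNAs against the control moved between 1 and 10 when single arrays were left out. It was 2 under quantile normalization (0 higher and 2 lower) and 3 in the authors' processed values (1 higher and 2 lower). It was 2 without *Hoxa13* gRNA replicate 1, 2 without replicate 2, 1 without control replicate 1, 2 without control replicate 2 and 10 without control replicate 3.

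The precision of these comparisons can be read from the 95% intervals of the log2 differences. For *Hottip* gRNAs minus the control, the intervals of 32 of 35 members lay between −2 and 2, the exceptions being *Dnajb9*, *Ern1* and *Hsf1*, and those of 6 lay between −1 and 1. For *Hoxa13* gRNAs minus the control, 27 of 35 lay between −2 and 2 and 2 between −1 and 1. The absence of a call therefore leaves room for differences near 1 on the log2 scale for most members. The median within-group SD of the members was 0.417 (from 0.265 for *Dnajb1* to 1.37 for *Ern1*) against 0.518 over all probes tested.

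**Figure D1:**
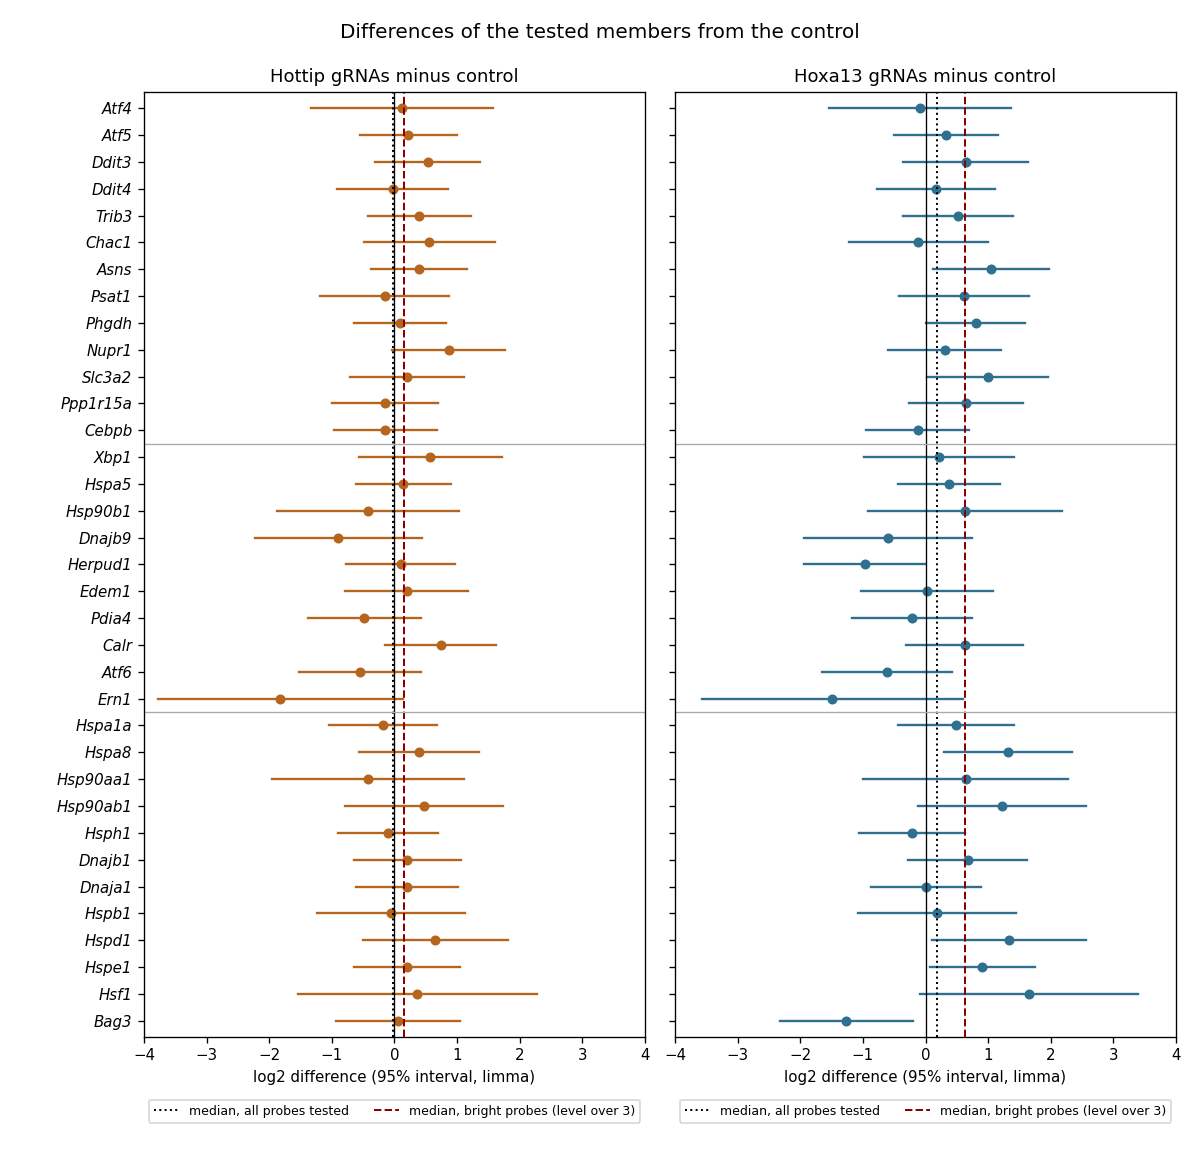
Log2 difference from the control (x axis) of each of the 35 tested members (y axis, in the order ATF4 targets, ER arm, heat shock arm), with points for the limma estimate and bars for its 95% interval; the dotted line is the median of all probes tested and the dashed line the median of probes with a mean level over 3. After *Hottip* gRNAs all 35 intervals span 0, while after *Hoxa13* gRNAs many estimates lie near the dashed line at 0.63 and 10 of 35 lie below 0. Leaving out *Ern1*, *Bag3* and *Herpud1* lie furthest below. The values drawn for *Ern1*, mostly not above background, and *Hsp90ab1*, saturated on most arrays, are not exact.

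The direction of the members was set beside that of all probes on the arrays. After *Hottip* gRNAs 22 of 35 members were above the control mean (62.9%, against 47.8% of all probes tested), with a median log2 difference of 0.14 against −0.03 for all probes. In the authors' processed values 15 were above and 20 below, and with normexp background correction 14 were above and 21 below. After *Hoxa13* gRNAs 25 of 35 were above it (71.4%, against 60.2% of all probes), with a median of 0.37 against 0.19. Bright probes as a whole were higher after *Hoxa13* gRNAs: those with a mean level over 3 had a median difference of 0.63 from the control, compared with 0.15 after *Hottip* gRNAs. Of the tested members 21 have such a bright probe.

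The ATF4 arm had a median log2 difference of 0.20 after *Hottip* gRNAs and 0.51 after *Hoxa13* gRNAs. Of its 13 tested genes 9 were above the control mean after *Hottip* gRNAs and 10 after *Hoxa13* gRNAs. Many genes of this arm carry a composite site for ATF4 and its C/EBP partners. In RefSeq promoter windows of GRCm38.p6, which run from 250 bases before to 50 bases after a transcript start and were found for 32 of the 37 members, the letters TGATGNAA on either strand were found in 7 members: *Asns*, *Atf3*, *Chac1*, *Nupr1*, *Slc7a11*, *Trib3* and, from the ER arm, *Herpud1*. Of all 32851 such windows 3.97% hold them, and of the 27025 genes with a window 4.51% do. The sites of 4 of these genes are shown as examples, each 5′ to 3′ on the strand of the gene with the match in capitals (TTGCATCA and TTACATCA are matches on the opposite strand).
Asns (chr6:7693214-7693243, minus strand): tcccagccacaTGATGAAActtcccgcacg
Nupr1 (chr7:126625562-126625591, minus strand): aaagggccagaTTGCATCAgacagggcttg
Trib3 (chr2:152344028-152344057, minus strand): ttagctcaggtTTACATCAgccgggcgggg
Herpud1 (chr8:94386306-94386335, plus strand): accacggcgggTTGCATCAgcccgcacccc

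*Atf4* itself, the transcription factor of the arm, had levels of 5.09, 4.89 and 4.28 after *Hottip* gRNAs (replicates 2 to 4, the spot of replicate 1 being left out as an outlier), 5.02, 3.04 and 5.57 after *Hoxa13* gRNAs and 4.03, 4.56 and 5.31 in the control. *Hoxa13* gRNA replicate 2 was the lowest of the 9 measured arrays, and the 3 groups overlapped. The log2 difference from the control was 0.12 after *Hottip* gRNAs (95% interval −1.33 to 1.57, adjusted p = 0.999 from limma) and −0.09 after *Hoxa13* gRNAs (−1.54 to 1.36, adjusted p = 0.960). Without *Hoxa13* gRNA replicate 2 the latter was 0.66, and on the slide with all 3 groups, where replicate 3 is the only *Hoxa13* gRNA array, it was 0.93. The second *Atf4* probe differed by −0.02 and 0.24. *Atf4* is controlled largely by translation, which an RNA array does not measure.

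*Ddit3*, which encodes the pro-apoptotic factor CHOP, had levels of 1.50, 1.67, 1.67 and 1.07 after *Hottip* gRNAs, 1.25 and 1.93 after *Hoxa13* gRNAs (replicates 1 and 3, the other being left out) and 1.15, 0.46 and 1.23 in the control. One *Hottip* gRNA array lay within the control range, and the 2 measured *Hoxa13* gRNA arrays lay above it. Its log2 difference was 0.53 after *Hottip* gRNAs (interval −0.30 to 1.37, adjusted p = 0.901 from limma) and 0.64 after *Hoxa13* gRNAs (−0.36 to 1.64, adjusted p = 0.557). The latter rests on the outlier flag of replicate 2, since with outlier spots kept it was 0.0012, and it was 0.10 in the authors' processed values. With single arrays left out, the difference after *Hottip* gRNAs ranged from 0.29 to 0.67.

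*Nupr1*, a small stress-induced chromatin protein, had the smallest p of the arm for *Hottip* gRNAs against the control. Its levels were 3.38, 4.39 and 3.71 after *Hottip* gRNAs (replicates 1 to 3), 3.50, 2.87 and 3.45 after *Hoxa13* gRNAs and 3.06, 2.70 and 3.13 in the control. All 3 measured *Hottip* gRNA arrays exceeded the control arrays. The log2 difference of 0.86 (interval −0.04 to 1.77) had an adjusted p of 0.654 from limma and p = 0.1 in a two-sided exact permutation test, the smallest that 3 arrays against 3 allow. *Trib3*, a pseudokinase that restrains ATF4 and CHOP, and *Calr* of the ER arm were the other 2 members whose *Hottip* gRNA arrays all exceeded the control (3 of 35 higher, against 5.94% of all probes, and 0 lower, against 7.77%), and *Calr* was not with outlier spots kept. *Trib3*, named after its values were seen, had levels of 2.71, 3.22, 3.12 and 2.79 against 2.59, 2.48 and 2.63 in the control, and the estimate was 0.40 (adjusted p = 0.970 from limma). It was less uniform after *Hoxa13* gRNAs, with levels of 3.58, 2.34 and 3.32.

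The members of the arm with the smallest p after *Hoxa13* gRNAs were *Asns*, *Slc3a2* and *Phgdh*. *Asns*, asparagine synthetase, had levels of 4.89 and 4.73 after *Hoxa13* gRNAs (replicates 1 and 2), 4.18, 4.27, 4.43 and 3.73 after *Hottip* gRNAs and 3.45, 3.74 and 4.10 in the control. *Slc3a2*, the heavy chain of several amino acid transporters, had levels of 5.51, 5.22 and 4.74 after *Hoxa13* gRNAs, 4.31, 4.38, 4.79 and 3.95 after *Hottip* gRNAs and 4.16 and 4.17 in the control (replicates 1 and 2). *Phgdh*, the first enzyme of serine synthesis, had levels of 4.41, 4.39 and 4.06 after *Hoxa13* gRNAs, 3.77, 3.50, 3.87 and 3.16 after *Hottip* gRNAs and 3.40, 3.26 and 3.80 in the control. For each of these 3 genes the *Hoxa13* gRNA arrays lay above all measured control arrays, and for *Asns* and *Phgdh* also above all *Hottip* gRNA arrays. Both *Asns* values are from the slide that held no other group, so for them slide and group cannot be told apart, while the spot left out on the shared slide (replicate 3) was at 4.70.

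The log2 differences from the control after *Hoxa13* gRNAs were 1.05 for *Asns* (interval 0.12 to 1.97), 1.00 for *Slc3a2* (0.03 to 1.96) and 0.80 for *Phgdh* (0.02 to 1.59), with adjusted p from limma of 0.447, 0.452 and 0.454. All probes with a mean level over 4, such as those of *Asns* and *Slc3a2*, had a median of 0.82 in this comparison, and those with a mean level of 3 to 4, such as that of *Phgdh*, had a median of 0.38. Under quantile normalization the difference was 0.40 for *Asns* and −0.11 for *Slc3a2*, and in the authors' processed values it was 0.135 and −0.24. Against the *Hoxa13* gRNA arrays, *Slc3a2* differed by −0.80 after *Hottip* gRNAs (interval −1.61 to 0.01, adjusted p = 0.422 from limma) and *Phgdh* by −0.71 (−1.45 to 0.02, adjusted p = 0.426), with p = 0.0286 for *Phgdh* in a two-sided exact permutation test of 4 arrays against 3, but in the authors' processed values the difference of *Phgdh* was 0.14. The permutation p of *Phgdh* is the smallest that 4 arrays against 3 allow and is not adjusted for the number of genes. Of all probes 12.8% had groups that did not overlap in this direction. *Psat1*, the next enzyme of serine synthesis, differed from the control by −0.16 after *Hottip* gRNAs and 0.62 after *Hoxa13* gRNAs, and its other probe by 0.35 and 0.81, and with outlier spots kept the first value was 0.087.

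Other genes of the arm spread around 0. *Chac1*, which degrades glutathione, differed from the control by 0.56 after *Hottip* gRNAs and −0.11 after *Hoxa13* gRNAs, and its lowest value of the 10 arrays, 1.55, was on *Hoxa13* gRNA replicate 2, as for *Atf4* and *Trib3*. *Hoxa13* gRNA replicates 1 and 3 were at 2.58 and 3.31, against a control mean of 2.59, so the sign of that difference rests on replicate 2. *Ppp1r15a*, the eIF2 phosphatase subunit that ends the response, differed by −0.15 and 0.64. *Atf5*, *Ddit4* and *Cebpb* lay between −0.14 and 0.33 in both comparisons. *Atf3*, an early stress-induced factor, was dim: its levels were −3.17, −2.22, −2.40 and −2.66 after *Hottip* gRNAs, −2.93, −3.87 and −3.44 after *Hoxa13* gRNAs and −3.39, −3.87 and −3.50 in the control. All 4 *Hottip* gRNA arrays exceeded all control arrays, but the probe was well above background on only 1 of 4 *Hottip* gRNA and 1 of 3 control arrays, so the difference was not tested and none is given. *Atf3* was named in full after its values were seen. *Slc7a11*, the cystine transporter, passed the background test on 0 arrays and has only an upper limit.

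**Figure D2:**
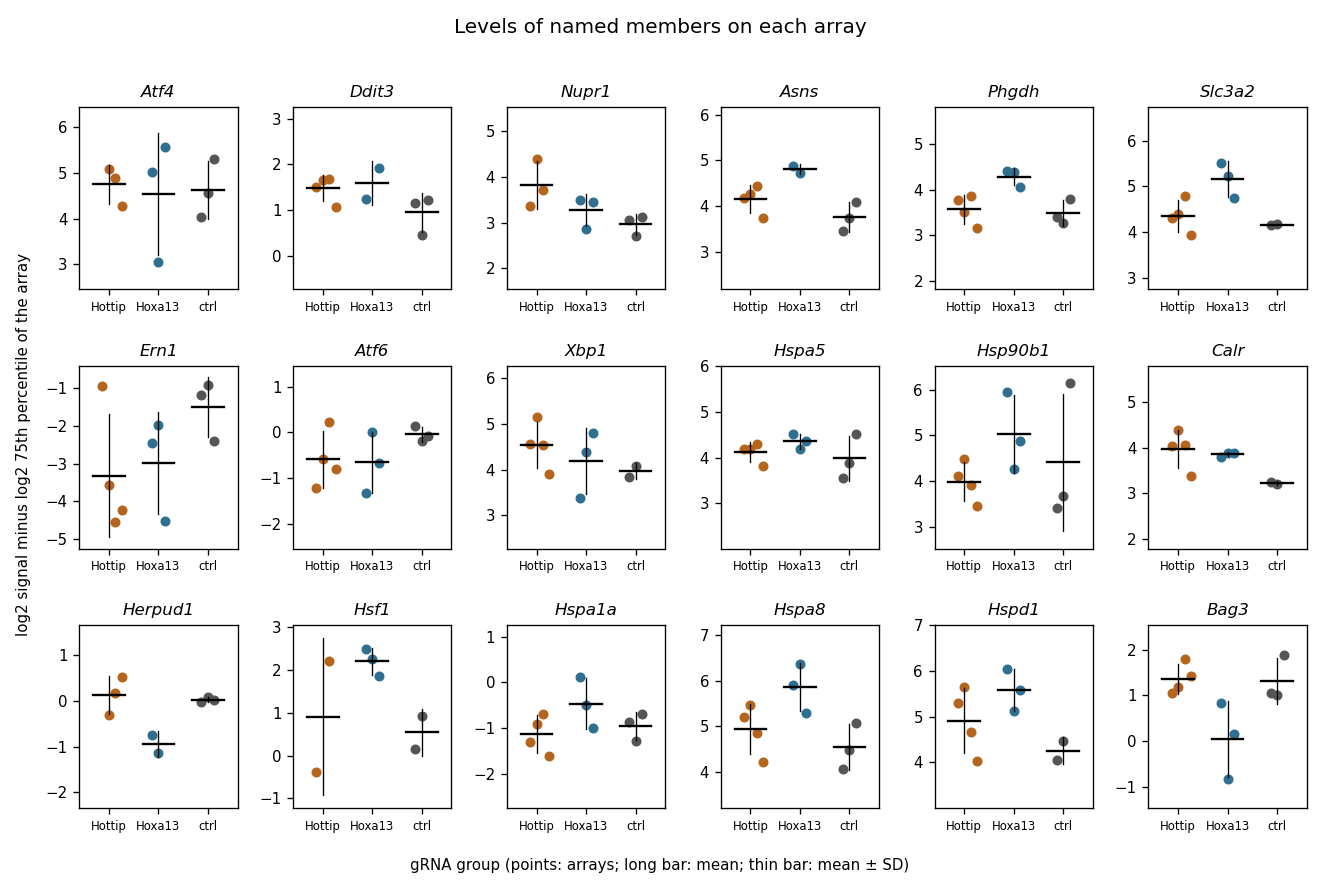
Levels (y axis, log2 signal minus log2 of the array's 75th percentile) of 18 members in the 3 groups (x axis), with a point for each array, a long bar for the mean and a thin bar for the mean ± SD; panels have different y ranges. *Hspa8*, *Phgdh* and *Asns* lie highest after *Hoxa13* gRNAs, *Bag3* and *Herpud1* lowest there, and in *Ern1*, *Hsf1* and *Hsp90b1* the arrays of a single group lie far apart.

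The ER arm was centred near 0, with median log2 differences of −0.16 after *Hottip* gRNAs and −0.10 after *Hoxa13* gRNAs, and 5 of its 10 genes were above the control mean in each case. Without *Ern1*, which was mostly not above background, the medians were 0.10 and 0.02, so their sign is not settled. The arm was divided by brightness. The 4 genes with a bright probe, *Xbp1*, *Hspa5*, *Hsp90b1* and *Calr*, had medians of 0.36 and 0.50, whereas the genes with a mean level of 3 or less had medians of −0.52 and −0.61 (−0.48 and −0.60 without *Ern1*). Of the genes with a bright probe, *Hsp90b1* lay below the control after *Hottip* gRNAs, at −0.42 (interval −1.87 to 1.04), and at 0.63 after *Hoxa13* gRNAs. The division by brightness is given at the reported scaling only. In the authors' processed values *Xbp1* and *Hspa5* were at −0.041 and −0.32 after *Hottip* gRNAs, with *Calr* at 0.52. After *Hoxa13* gRNAs *Xbp1* and *Hspa5* were there at −0.76 and −0.43. Of the 4 genes with a bright probe, the 3 chaperone genes are also the members whose promoter windows hold the ER stress element. It was searched on either strand as CCAAT and CCACG with 9 bases between them, which 0.119% of all windows and 0.137% of all genes hold. These sites are shown for comparison, 5′ to 3′ on the strand of the gene and with the match in capitals, and the third and the fourth are matches on the opposite strand. *Hspa5* also holds the shorter XBP1 and ATF6 site TGACGTG, found in 2.01% of all windows and for 2.22% of all genes, which does not overlap the first.
Hspa5 (chr2:34772020-34772049, plus strand): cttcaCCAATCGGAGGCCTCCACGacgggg
Hsp90b1, distal (chr10:86705632-86705661, minus strand): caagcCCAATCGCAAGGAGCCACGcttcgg
Hsp90b1, proximal (chr10:86705527-86705556, minus strand): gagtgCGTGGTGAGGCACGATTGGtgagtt
Calr (chr8:84847069-84847098, minus strand): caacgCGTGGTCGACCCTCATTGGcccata

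*Hspa5* encodes BiP, the main ER chaperone and the usual marker of the unfolded protein response. Its levels were 4.20, 4.18, 4.30 and 3.81 after *Hottip* gRNAs, 4.51, 4.18 and 4.37 after *Hoxa13* gRNAs and 3.55, 3.88 and 4.52 in the control. The arrays of the 3 groups overlapped throughout, and the highest value was in control replicate 3. The log2 differences from the control were 0.14 (interval −0.62 to 0.90, adjusted p = 0.999 from limma) and 0.37 (−0.44 to 1.18, adjusted p = 0.675). Each turned negative in 4 of 28 alternative settings, to −0.32 and −0.43 in the authors' processed values. *Hsp90b1*, the ER member of the HSP90 family (GRP94), had levels of 4.12, 4.48, 3.90 and 3.46 after *Hottip* gRNAs, 5.95, 4.27 and 4.88 after *Hoxa13* gRNAs and 3.40, 3.68 and 6.14 in the control. *Hoxa13* gRNA replicate 1 and control replicate 3 stood above all others, and the difference of −1.04 between *Hottip* gRNAs and *Hoxa13* gRNAs (interval −2.50 to 0.41, adjusted p = 0.506 from limma) was within that spread and was 0.054 in the authors' processed values.

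*Calr*, the ER calcium-binding lectin chaperone calreticulin, was the ER chaperone with the smallest p after *Hottip* gRNAs. Its levels were 4.05, 4.38, 4.07 and 3.38 after *Hottip* gRNAs, 3.80, 3.88 and 3.89 after *Hoxa13* gRNAs and 3.26 and 3.20 in the control (replicates 1 and 2). All arrays of both gRNA groups exceeded the 2 control arrays. The log2 differences were 0.74 (interval −0.15 to 1.63, adjusted p = 0.755 from limma) and 0.63 (−0.31 to 1.56, adjusted p = 0.544). They rest on the outlier flag of the brighter control replicate 3, since with outlier spots kept the differences were 0.28 and 0.16.

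Of the sensors, *Ern1* (IRE1) had levels of −0.93, −3.56, −4.54 and −4.23 after *Hottip* gRNAs, −2.45, −1.97 and −4.53 after *Hoxa13* gRNAs and −1.18, −0.91 and −2.40 in the control. Its probe was well above background on 0 of 4, 1 of 3 and 2 of 3 arrays of these groups. The gene thus entered the test only through the other groups, and its *Hottip* gRNA levels are bounds. As not every control array was above background either, no size of the difference is given here. The levels of both groups overlapped through *Hottip* gRNA replicate 1. *Atf6*, the sensor cleaved in the Golgi, had levels of −1.22, −0.59, 0.24 and −0.80 after *Hottip* gRNAs, −1.33, 0.01 and −0.67 after *Hoxa13* gRNAs and 0.14, −0.19 and −0.07 in the control. The *Hottip* gRNA arrays spanned the control range, the *Hoxa13* gRNA arrays reached from below it into it, and the means gave log2 differences of −0.55 (adjusted p = 0.937 from limma) and −0.62 (adjusted p = 0.588). *Xbp1*, whose RNA is spliced by IRE1, had levels of 4.56, 5.16, 4.53 and 3.91 after *Hottip* gRNAs, 3.38, 4.39 and 4.80 after *Hoxa13* gRNAs and 3.85 and 4.09 in the control, and differed by 0.57 (adjusted p = 0.960 from limma) and 0.22 (adjusted p = 0.882). The latter turned negative in 8 of 28 alternative settings and the former in 2. With the outlier spot of control replicate 3 kept (4.81), the differences of *Xbp1* were 0.29 and −0.061. The probe does not report the splicing of *Xbp1*.

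*Herpud1*, an ER membrane protein of the degradation pathway and a target of both ATF4 and the ER sensors, was lower on the 2 *Hoxa13* gRNA arrays measured. Its levels were −0.74 and −1.15 after *Hoxa13* gRNAs (replicates 1 and 2), −0.30, 0.17 and 0.51 after *Hottip* gRNAs (replicates 2 to 4) and −0.02, 0.08 and 0.02 in the control. The 2 measured *Hoxa13* gRNA arrays were below all measured arrays of the other groups, but both were on the slide that held no other group, so the slide and the group cannot be told apart for this gene. The spot left out on the shared slide (*Hoxa13* gRNA replicate 3) was at 0.19, above all control arrays. The log2 difference from the control was −0.97 (interval −1.95 to −0.00052, adjusted p = 0.456 from limma), and *Hottip* gRNAs exceeded *Hoxa13* gRNAs by 1.07 (interval 0.10 to 2.04, adjusted p = 0.388). With outlier spots kept these were −0.59 and 0.81, and the groups overlapped. The remaining genes were *Dnajb9*, a co-chaperone of BiP (−0.89 and −0.60, its other probe −0.15 and −0.48, and −0.29 after *Hottip* gRNAs with the outlier spot of replicate 1 kept), *Edem1*, which directs misfolded glycoproteins to degradation (0.20 and 0.02), and *Pdia4*, a disulphide isomerase (−0.48 and −0.22), all with adjusted p above 0.6 from limma.

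**Figure D3:**
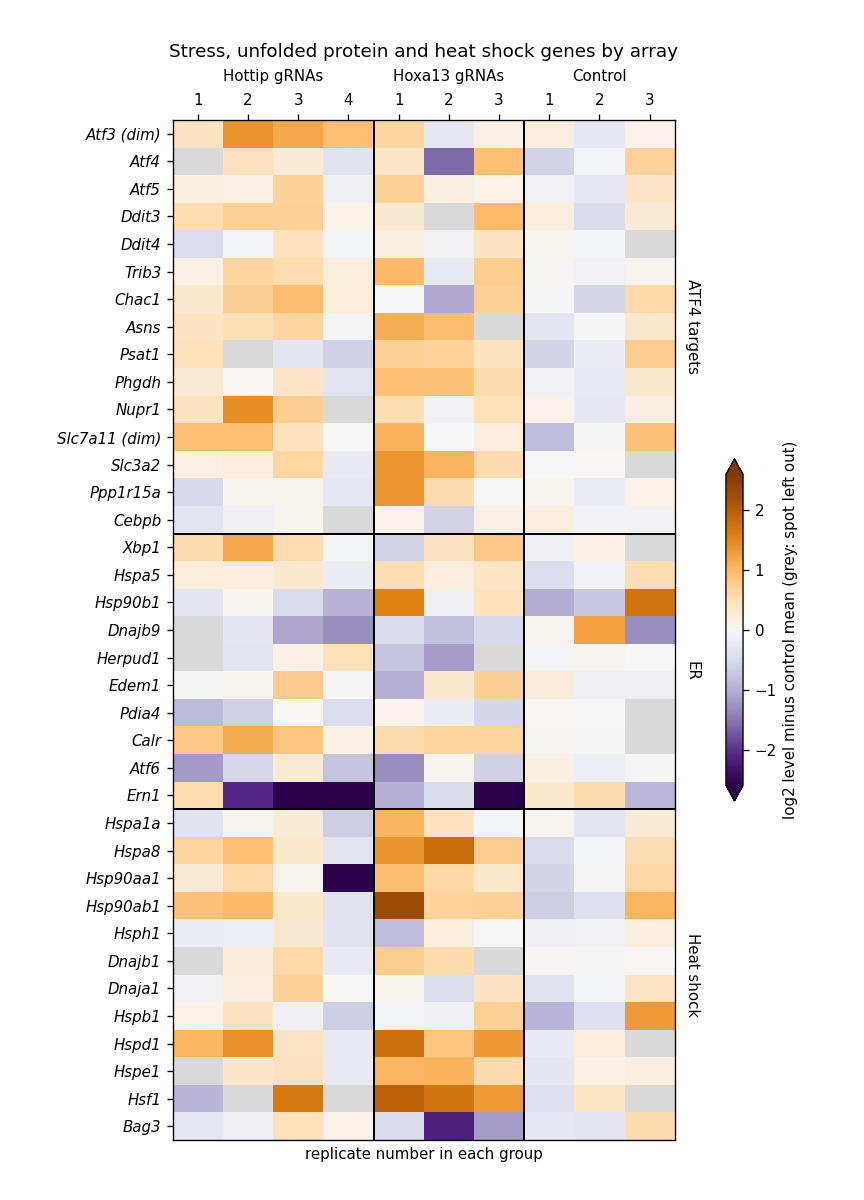
Level of each of the 37 members (rows) on each of the 10 arrays (columns) minus its control mean, in log2 units, with grey for spots left out as outliers and "dim" for the 2 members that were not tested; values past the ends of the colour scale take its end colour. The heat shock rows are mostly above the control mean on the 3 *Hoxa13* gRNA arrays, apart from *Bag3*. The lowest single values are those of *Hsp90aa1* and of *Ern1*, which was mostly not above background.

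The heat shock arm had median log2 differences of 0.20 after *Hottip* gRNAs and 0.66 after *Hoxa13* gRNAs, with 8 and 10 of its 12 genes above the control mean. Of all members, 10 had their *Hoxa13* gRNA arrays all above the control (against 16.7% of all probes) and 2 all below it (7.14%), and 5 of the 10 were heat shock genes. With outlier spots kept these counts were 7 and 1, without *Ddit3*, *Calr*, *Hspd1* and *Herpud1*. The inducible chaperone *Hspa1a* (HSP70), which is low in unstressed cells and the classical readout of HSF1, was not among them. Its levels were −1.31, −0.91, −0.69 and −1.62 after *Hottip* gRNAs, 0.11, −0.50 and −1.002 after *Hoxa13* gRNAs and −0.88, −1.29 and −0.70 in the control. The groups overlapped, and the log2 differences were −0.18 (interval −1.04 to 0.68, adjusted p = 0.999 from limma) and 0.49 (−0.43 to 1.41, adjusted p = 0.627). The former was 0.082 with centring on the median and the latter −0.049 on the slide with all 3 groups. The regulator *Hsf1* had levels of −0.39 and 2.20 after *Hottip* gRNAs (replicates 1 and 3), 2.48, 2.24 and 1.86 after *Hoxa13* gRNAs and 0.15 and 0.93 in the control (replicates 1 and 2). Its difference of 1.65 after *Hoxa13* gRNAs (interval −0.09 to 3.40, adjusted p = 0.464 from limma) rests on 2 control arrays, and that of 0.36 after *Hottip* gRNAs on 2 arrays that lie far apart.

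*Hspa8* had the smallest p of all members after *Hoxa13* gRNAs, followed by *Bag3* and *Asns*. *Hspa8*, the HSP70 that is always expressed (HSC70), had levels of 5.91, 6.35 and 5.30 after *Hoxa13* gRNAs, 5.21, 5.46, 4.86 and 4.21 after *Hottip* gRNAs and 4.06, 4.48 and 5.08 in the control. All 3 *Hoxa13* gRNA arrays exceeded all control arrays, with a log2 difference of 1.31 (interval 0.29 to 2.33, adjusted p = 0.447 from limma) and p = 0.1 in the two-sided exact permutation test, the smallest possible. The spot was saturated on 1 of 3 *Hoxa13* gRNA arrays, so these sizes are approximate. The 3 *Hspa8* probes gave differences from 0.65 to 1.31. After *Hottip* gRNAs the difference of *Hspa8* from the control was 0.39 (interval −0.56 to 1.35), and 0.15 to 0.66 with single arrays left out. Over the alternative settings its difference after *Hoxa13* gRNAs ranged from 0.35 to 1.59, and no setting called it.

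*Hspd1* and *Hspe1* encode the mitochondrial chaperonins HSP60 and HSP10, which work together in a complex and are transcribed in opposite directions from a shared promoter. Both windows hold the heat shock element, searched on either strand as GAA, TTC and GAA with 2 bases between neighbours. It was found in 0.603% of all windows and for 0.662% of all genes. Both windows hold it at overlapping positions of the same stretch of DNA, where the element matches once on each strand. The stretch is shown from the side of each gene, with the match on the gene's own strand in capitals. The window of *Hsph1*, another HSP70-related chaperone, holds the element as well.
Hspd1 (chr1:55088050-55088079, minus strand): gccttccgGAAGGTTCTAGAAcggaccgtg
Hspe1 (chr1:55088056-55088085, plus strand): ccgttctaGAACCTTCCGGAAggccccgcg

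*Hspd1* had levels of 5.30, 5.64, 4.66 and 4.03 after *Hottip* gRNAs, 6.04, 5.12 and 5.59 after *Hoxa13* gRNAs and 4.04 and 4.47 in the control (replicates 1 and 2). *Hspe1*, named after its values were seen, had levels of 4.67, 4.73 and 4.07 after *Hottip* gRNAs (replicates 2 to 4), 5.35, 5.39 and 4.87 after *Hoxa13* gRNAs and 3.99, 4.41 and 4.46 in the control. For both genes the *Hoxa13* gRNA arrays lay above the measured control arrays, and for *Hspe1* also above the *Hottip* gRNA arrays measured. With outlier spots kept, *Hspd1* overlapped with the control through its replicate 3 (5.89), with differences of 0.78 after *Hoxa13* gRNAs and 0.11 after *Hottip* gRNAs, and *Hspe1* overlapped between the guide pools. The log2 differences after *Hoxa13* gRNAs were 1.33 for *Hspd1* (interval 0.10 to 2.55) and 0.91 for *Hspe1* (0.07 to 1.75), both with an adjusted p of 0.447 from limma. The 3 *Hspe1* probes gave from 0.26 to 0.97. After *Hottip* gRNAs the differences were 0.65 for *Hspd1* and 0.20 for *Hspe1*, whose probes ran from −0.28 to 0.26. *Hsph1*, with the same element, differed by −0.10 and −0.22, but its other probe by 0.043 and 0.73, so its direction is not settled.

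*Bag3*, a co-chaperone of HSP70 that directs clients to autophagy and a sensitive HSF1 target, went against the arm after *Hoxa13* gRNAs at the reported scaling. Its levels were 0.83, −0.83 and 0.16 after *Hoxa13* gRNAs, 1.05, 1.19, 1.80 and 1.43 after *Hottip* gRNAs and 1.04, 1.01 and 1.89 in the control. Every *Hoxa13* gRNA array, including the one on the shared slide, lay below every other array. The log2 difference from the control was −1.26 (interval −2.32 to −0.21, adjusted p = 0.447 from limma, exact permutation p = 0.1). *Hottip* gRNAs exceeded *Hoxa13* gRNAs by 1.32 (interval 0.33 to 2.30, adjusted p = 0.309), with p = 0.0286 in the two-sided exact permutation test, the smallest for 4 arrays against 3. *Bag3* had the smallest adjusted p of all members in that comparison but was not called. It was lower after *Hoxa13* gRNAs than in the control under all 28 alternative settings, by between −1.65 and −0.82. In the authors' processed values the median of the heat shock arm was itself below 0, at −0.17.

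The cytosolic HSP90 genes showed how far single arrays can carry a difference. *Hsp90aa1*, named after its values were seen, had levels of 5.04, 5.37, 4.84 and 2.16 after *Hottip* gRNAs, 5.74, 5.38 and 5.11 after *Hoxa13* gRNAs and 4.19, 4.73 and 5.38 in the control. *Hottip* gRNA replicate 4 was far below all others, and the differences of −0.41 and 0.64 had intervals from −1.95 to 1.12 and from −0.997 to 2.28. The other *Hottip* gRNA arrays all lay above the control mean of 4.77, so the negative sign after *Hottip* gRNAs rests on replicate 4. *Hsp90ab1* was saturated on 3 of 4 *Hottip* gRNA, 2 of 3 *Hoxa13* gRNA and 2 of 3 control arrays, so the size of its differences is not known and none is given in the text. *Dnajb1* and *Dnaja1*, HSP40 co-chaperones, differed by 0.20 and 0.20 after *Hottip* gRNAs and by 0.67 and 0.0064 after *Hoxa13* gRNAs (for *Dnajb1* from the 2 arrays on the slide with no other group, the spot left out on the shared slide being at 4.25), and the small heat shock gene *Hspb1* differed by −0.06 and 0.18.

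The arms were also compared array by array, as the median over an arm of each gene's level minus its control mean. For the heat shock arm these medians were 0.01, 0.38, 0.38 and −0.33 after *Hottip* gRNAs, 1.02, 0.60 and 0.58 after *Hoxa13* gRNAs and −0.33, −0.05 and 0.47 in the control. The *Hoxa13* gRNA arrays lay above all others, and they also did so for bright probes as a whole, at 0.82, 0.60 and 0.51 against −0.32 to 0.44 after *Hottip* gRNAs and −0.23 to 0.43 in the control. For the ATF4 arm the medians were 0.23, 0.34, 0.56 and −0.12, then 0.70, 0.04 and 0.53, then −0.0046, −0.18 and 0.31, and the groups overlapped. The ER arm also overlapped, with medians from −0.32 to 0.21 after *Hottip* gRNAs, from −0.54 to 0.39 after *Hoxa13* gRNAs and from −0.03 to 0.02 in the control. Among the 18 tested members with a value on all arrays, the lowest value was most often on control replicate 1 (27.8%, against 9.94% of all probes tested and 39.0% of bright probes), and the highest on *Hottip* gRNA replicate 3 and *Hoxa13* gRNA replicate 1 (33.3% each, against 15.6% and 31.5% of all probes and 4.98% and 51.3% of bright probes).

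**Figure D4:**
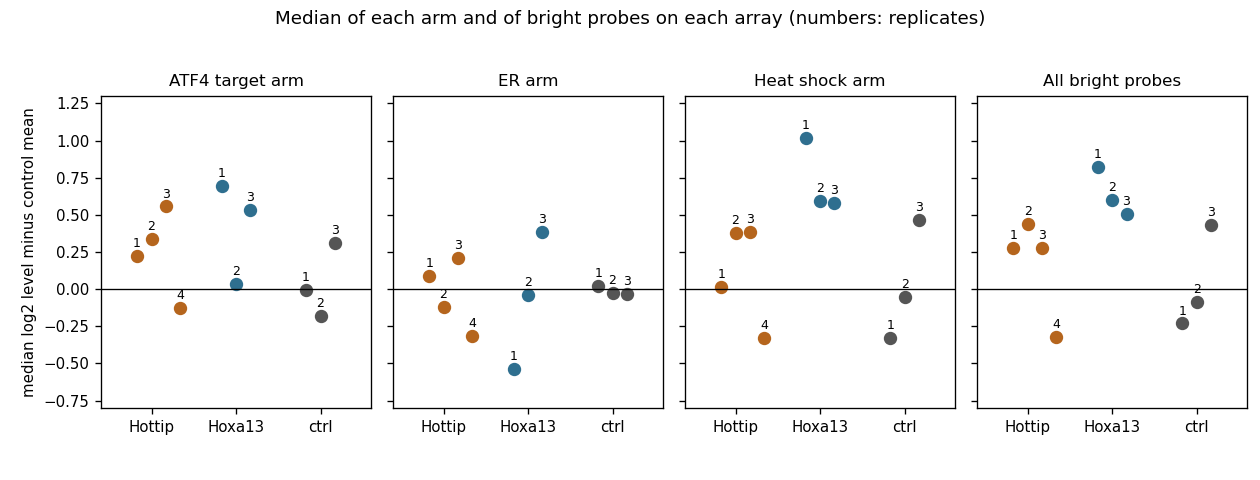
Median over the tested genes of each arm, and over all probes with a mean level over 3, of the log2 level minus the control mean (y axis), for each array (points, numbered by replicate) of the 3 groups (x axis). The heat shock arm and the bright probes share the order of their arrays in outline, with *Hoxa13* gRNA replicate 1 highest (1.02 and 0.82) and *Hottip* gRNA replicate 4 lowest (−0.33 and −0.32).

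The height of the heat shock and ATF4 arms after *Hoxa13* gRNAs changed with the scaling of the arrays. Quantile normalization, which gives all arrays the same distribution, brought the median of bright probes from 0.63 to −0.00062 and that of the heat shock arm from 0.66 to 0.10, the ATF4 arm from 0.51 to 0.05 and the ER arm from −0.10 to −0.40. In the authors' processed values, whose array medians lie between 7.186 and 7.196, the 3 medians were −0.17 (heat shock), −0.17 (ATF4) and −0.47 (ER), and 6 of 35 members were above the control mean against 25 as reported. After *Hottip* gRNAs the arm medians moved less, from −0.07 to 0.49 for the ATF4 arm, from −0.33 to 0.12 for the ER arm and from −0.05 to 0.39 for the heat shock arm over all settings. On the slide with all 3 groups, which leaves 1 *Hoxa13* gRNA array, 24 of 32 measured members were above the control and their median was 0.48.

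**Figure D5:**
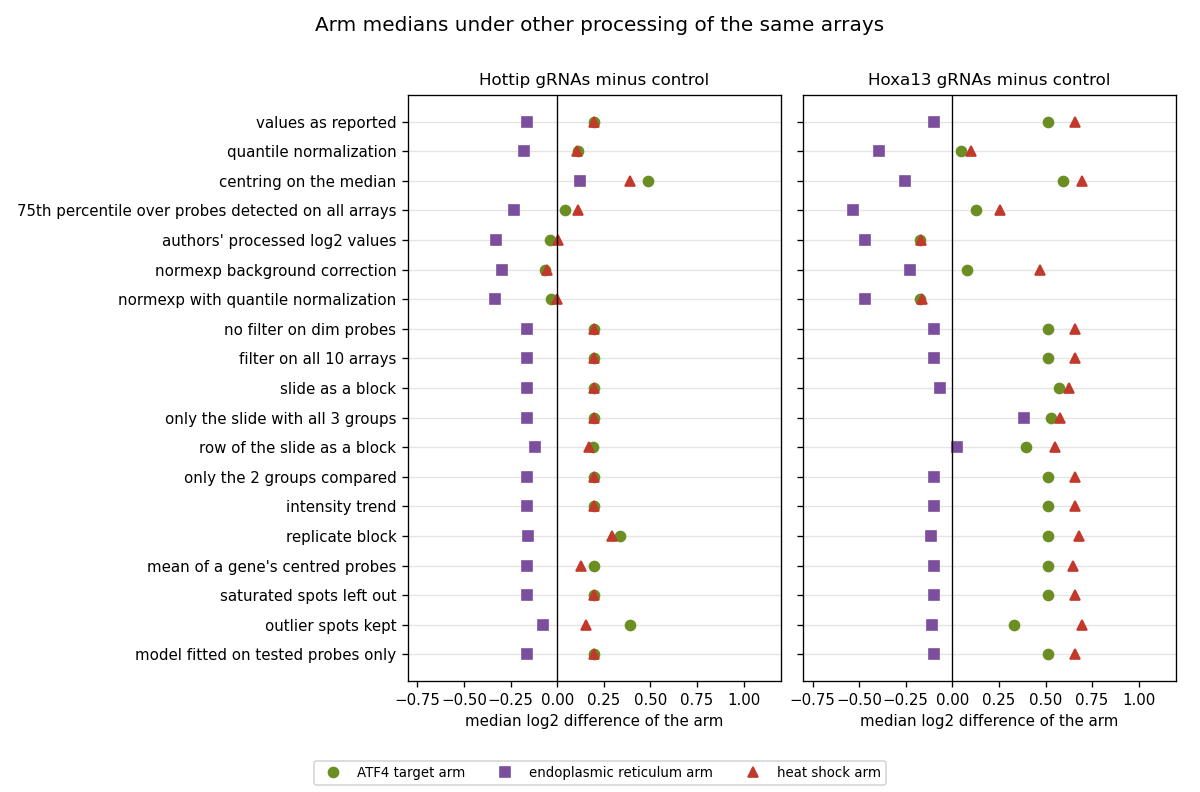
Median log2 difference from the control of the 3 arms (x axis) as reported and under 18 other ways of processing or fitting the same arrays (y axis), for *Hottip* gRNAs (left) and *Hoxa13* gRNAs (right). After *Hoxa13* gRNAs the heat shock median lies at 0.66 as reported and at −0.17 in the authors' values, while the ER median is below 0 except in the fit that blocks on the array's row (0.02) and on the slide with all 3 groups (0.39).

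Placing the guide pools side by side, the *Hottip* gRNA group lay below the *Hoxa13* gRNA group for 24 of 35 members (31.4% were higher, against 34.3% of all probes tested). This direction turned with the scaling: 24 of 35 were higher in the authors' processed values, 20 with the percentile taken over detected probes and 19 under quantile normalization. The arm medians of this difference were −0.12 for ATF4 targets, −0.08 for the ER arm (0.07 without *Ern1*) and −0.67 for the heat shock arm, and that of bright probes was −0.52. The arrays of both groups did not overlap for 5 members, of which *Bag3* and *Herpud1* were higher after *Hottip* gRNAs (4.98% of all probes) and *Asns*, *Phgdh* and *Hspe1* were lower (12.8%). With outlier spots kept, *Bag3*, *Asns* and *Phgdh* did not overlap.

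Wider lists of the same pathways gave 0 calls as well. Of 22 further integrated stress genes, which include the eIF2 kinases and amino acid enzymes, limma called 0 in each comparison. Their median log2 differences were 0.07 after *Hottip* gRNAs and −0.15 after *Hoxa13* gRNAs, with 12 and 10 of 22 above the control mean. At an unadjusted p under 0.05, 2 were higher after *Hoxa13* gRNAs (7.98% of all probes were), *Shmt2* of mitochondrial one-carbon metabolism (1.57 higher than the control, adjusted p = 0.352) and *Gars*, glycyl-tRNA synthetase (about 1.09 higher, with 1 of 3 *Hoxa13* gRNA arrays saturated, adjusted p = 0.447). After *Hottip* gRNAs the smallest p were those of *Slc6a9*, a glycine transporter (adjusted p = 0.791, with no difference given because it passed the background test on only 2 of 4 *Hottip* gRNA arrays), and *Eif2ak3*, which encodes PERK (−0.70, adjusted p = 0.827). Between the guide pools 2 were lower after *Hottip* gRNAs at an unadjusted p under 0.05 (7.87% of all probes were), *Shmt2* (−1.11) and the arginine transporter *Slc7a3* (−0.91). Of 25 further ER genes 0 were called by limma. Their medians were 0.015 and 0.18, with 13 and 17 of 25 above the control mean. At an unadjusted p under 0.05, 1 was higher after *Hottip* gRNAs (3.76% of all probes were) and 2 after *Hoxa13* gRNAs (7.98%). *Ero1a*, the oxidase that drives disulphide formation, was counted in both comparisons. It entered the test mainly through the gRNA groups, where it was higher, so its p is not given. Its levels were −0.35, 0.95, 0.46 and 0.39, then −0.22, 0.11 and 0.56, then −2.88, −2.90 and 0.07 in the control, so that control replicate 3 lay among the gRNA arrays, and as it passed the background test on 1 of 3 control arrays no difference is given. Of the other genes on this list, those with the smallest p were *Pdia3* after *Hottip* gRNAs (−0.51, adjusted p = 0.980) and *Derl2* after *Hoxa13* gRNAs (0.92, adjusted p = 0.448).

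Of 32 tested further heat shock genes, which include the chaperonin subunits and HSP90 co-chaperones, 0 were called by limma. At an unadjusted p under 0.05, 1 was lower after *Hottip* gRNAs (4.29% of all probes were) and 5 were higher after *Hoxa13* gRNAs (7.98%). The lower gene was *Hspa2*, for which no *Hottip* gRNA value used was above background, so that count shows no difference. The median log2 differences were 0.19 after *Hottip* gRNAs and 0.59 after *Hoxa13* gRNAs. In each comparison 26 of 32 were above the control mean (against 47.8% and 60.2% of all probes). Leaving out *Hspa2*, an HSP70 of the germ line, the smallest p after *Hottip* gRNAs was that of *Cct3*, a chaperonin subunit (−1.44, adjusted p = 0.782). The only *Hottip* gRNA array on which *Hspa2* passed the background test (1 of 4) had its spot left out as an outlier, so no difference is given for it. After *Hoxa13* gRNAs the smallest p were those of *Ubb*, a polyubiquitin gene (adjusted p = 0.429, with no difference given because it was saturated on 9 of 10 arrays), and *Ptges3*, the HSP90 co-chaperone p23 (1.21, adjusted p = 0.447). Between the guide pools *Cct3* differed by −2.92 after *Hottip* gRNAs (adjusted p = 0.233), on 3 arrays against 2. Both *Hoxa13* gRNA values are from the slide that held no other group, so slide and group cannot be told apart for them. After *Hoxa13* gRNAs the median of this wider list lay, like that of the arm itself, near the median of bright probes (0.63).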

How the data were processed

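The 10 RNA samples were each measured on an Agilent array in one colour (Cy3). The authors deposited Feature Extraction 11.5.1.1 output, whose processed signal is a background-subtracted spot intensity (with spatial detrending on 8 of 10 arrays), and a table of log2 values that ranks spots as median signal minus local background does, with nearly equal medians over arrays (7.186 to 7.196). How that table was made is not given in the sources used here, apart from the name limma in the submitters' processing notes. Here each array's 75th percentile was subtracted from the log2 processed intensity, outlier spots were left out (0.312% to 7.28% per array), saturated spots were kept, and spots of a probe were averaged. Control replicate 3 had the largest share of outlier spots (7.28%), and 79.2% of them lay above that array's 75th percentile. Over all arrays this percentage ran from 34.6% to 83.9%. Groups and replicates came from the labels, which call the replicates biological.

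A model of group means over all probes and arrays was fitted in R 4.3.3 by lmFit and eBayes of limma 3.58.1. Of the 22839 probes that passed the scanner's background test on 3 or more arrays, Benjamini-Hochberg adjustment covered those with values in both groups (22830 in each comparison with the control and 22825 between the guide pools), and calls were made at an adjusted p under 0.05. Exact permutation tests of single genes were two-sided. The fit was tested on simulated data. Probes were named through RefSeq accessions of GRCm38.p6, while the array header names mm9. Promoter windows are RefSeq's on GRCm38.p6, and *Atf6*, *Hsf1*, *Hsp90aa1*, *Hsp90ab1* and *Hspa8* had no window in the table used.

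The members and gene lists were chosen with earlier results of these data known. Full values are given for the 2 genes of each arm with the smallest p in each comparison, and for *Atf4*, *Ddit3*, *Xbp1*, *Atf6*, *Ern1*, *Hsf1*, *Hspa5* and *Hspa1a*. Other scalings, background corrections, filters, blocks and left-out arrays were tried as alternatives. The number of arrays limits the precision.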

Additional observations from a re-analysis of the deposited data

Results flagged for a closer look

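Among the 4 *Hottip* gRNA arrays, *Hsp90aa1*, a cytosolic HSP90, had its lowest level, on replicate 4 (2.16), far from the nearest other (4.84), the gap being 0.833 of the whole range. *Edem1*, which directs misfolded glycoproteins to ER degradation, had its highest level, on replicate 3 (2.52), far from the nearest other (1.83), with a gap of 0.853 of the range. Both gaps pass Dixon's criterion at this group size. Of 28 members examined in this way 2 passed, and chance passes about 1 in 20 such groups. The 28 include *Atf3* and *Slc7a11*, which did not pass the background filter. On replicate 4 bright probes as a whole were also low (median −0.32 from the control mean), and the part of that in the value of *Hsp90aa1* was not tested.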

How the results depend on the processing

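Across 28 alternative settings (16 planned, 2 added after seeing the data and 10 that each left out 1 array) 0 members were called by limma, the smallest adjusted p being 0.125. Of 31 named differences 18 kept their direction everywhere. The causes of the changes below were not tested. The median of all probes in *Hoxa13* gRNAs minus the control was 0.19 as reported, 0.03 under quantile normalization and −0.21 with the 75th percentile over detected probes.

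In *Hoxa13* gRNAs minus the control, quantile normalization gave 0.047 (ATF4 arm), −0.40 (ER arm), 0.10 (heat shock arm), −0.11 (*Slc3a2*), −0.61 (*Xbp1*) and −0.16 (*Hspa5*), with 16 members above and 19 below the control. The percentile over detected probes gave 0.13, −0.53 and 0.26 for the arms, −0.27 for *Xbp1* and −0.015 for *Hspa5*. The authors' values gave −0.17, −0.47 and −0.17 for the arms, −0.24 for *Slc3a2*, −0.76 for *Xbp1* and −0.43 for *Hspa5*, with 6 members above and 29 below. Normexp with quantile normalization gave −0.17, −0.47 and −0.16, then −0.25, −0.77 and −0.43. Normexp alone gave 0.079 for the ATF4 arm and −0.17 for *Xbp1*. *Xbp1* was at −0.039 with centring on the median and −0.061 with outlier spots kept. The slide as a block, and the shared slide alone, both gave 0.93 for *Atf4* and −0.049 for *Hspa1a*, and the latter gave 0.39 for the ER arm. The mean of centred probes gave 0.20 for *Atf4*.

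In *Hottip* gRNAs minus the control, *Hspa1a* was at 0.082 with centring on the median and *Hspa5* at −0.19 with normexp. *Hspd1*, *Xbp1* and *Hspa5* were at −0.26, −0.041 and −0.32 in the authors' values and at −0.26, −0.040 and −0.32 with normexp and quantile normalization.

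In *Hottip* gRNAs minus *Hoxa13* gRNAs, the heat shock arm was at 0.0062 under quantile normalization, and the percentile over detected probes gave 0.18 (ATF4 arm) and 0.23 (ER arm). The authors' values gave 0.21 (ATF4 arm), 0.063 (heat shock arm), 0.054 (*Hsp90b1*) and 0.14 (*Phgdh*), and normexp with quantile normalization gave 0.21, 0.061, 0.050 and 0.14.

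With single arrays left out, *Atf4* ranged from −0.18 to 0.46, *Hsf1* from −0.93 to 1.66 and *Hspa5* from −0.079 to 0.41 in *Hottip* gRNAs minus the control. *Atf4* ranged from −0.60 to 0.66 and *Xbp1* from −0.086 to 0.62 in *Hoxa13* gRNAs minus the control. The ATF4 arm ranged from −0.49 (without *Hoxa13* gRNA replicate 2) to −0.059 between the guide pools, and the heat shock arm from −0.77 to −0.35. In *Hoxa13* gRNAs minus the control the ATF4 arm ranged from 0.26 to 0.64.

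With the replicate number as a block, 0 members were called, and calls over all probes went from 164 to 13, from 40 to 2 and from 87 to 8. The labels number the arrays within each group and do not say whether same-numbered arrays are paired, so this block is given only as an alternative. With the filter on all 10 arrays the calls over all probes were 5, 0 and 0. For *Hoxa13* gRNAs against the control they were 3 without control replicate 2 and 130 without control replicate 3. *Hsp90ab1* and, on 1 array, *Hspa8* are limited by saturation, and *Ern1*, *Atf3* and *Slc7a11* by their closeness to background.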
